A study of Mus musculus with 12 samples.

Results

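The regulators of mitochondrial biogenesis are a small set of nuclear transcription factors and coactivators, and 10 of them were followed here by name out of 54751 features in the expression table. They were the 3 PGC-1 coactivators Ppargc1a, Ppargc1b and Pprc1, the estrogen-related receptors Esrra, Esrrb and Esrrg, the factors Nrf1 and Gabpa, and the peroxisome proliferator-activated receptors Ppara and Ppard. Each symbol matched 1 row of the table. Total RNA had been taken from hearts of 52-week-old C57BL/6N mice, with cytoplasmic ribosomal RNA depleted and cDNA primed with random hexamers. The 3 knockout-labelled libraries (492, 499 and 501) came from mice with loxP sites on both Rexo2 alleles and an allele named Ckmm, and the 3 control libraries (490, 498 and 502) from mice with the same loxP alleles and no Ckmm allele in their label. Ckmm names muscle creatine kinase. Its promoter commonly drives Cre in striated muscle, heart included, so non-muscle cells of the heart would keep Rexo2, which encodes an exonuclease of very short RNAs. Any effect of the Ckmm allele itself and of a loss of Rexo2 cannot be told apart. The labels do not say whether each library is a separate animal, and p-values therefore cover only how far these samples spread, which may be technical.

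PGC-1 coactivators do not bind DNA themselves. They dock on DNA-bound factors, among them the estrogen-related receptors (ERR), PPAR alpha and NRF1, and bring in enzymes that open chromatin. In the heart these factors turn on genes of the respiratory chain, of mitochondrial DNA transcription and of fatty acid oxidation, and the genes encoding PGC-1 alpha and ERR alpha respond to energy demand in many tissues.

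Binding motifs of the set's own factors were looked for in RefSeq promoter windows (GRCm38.p6, 250 bases before to 50 after an annotated start), since several of these regulators are themselves targets of such factors. Windows were present for 9 of the 10 regulators, 14 in all, and 7 patterns were searched on both strands: GCGCA, any base, then GCGC for NRF1, CCGGAAGT for GABP and its shorter ETS core CCGGAA, TNAAGGTCA for ERR and its core AAGGTCA, TGACGTCA for the cyclic AMP response element, and AGGTCA repeated directly with 1 base between for PPAR. The shorter ETS and ERR cores lie within the longer forms and were added after the longer forms had been searched. A motif was present in 2 of the 14 windows. Ppara held the NRF1 letters, starting at base -31. These occur in 4.6% of all 32851 windows and in 6.38% of the 21263 windows of protein-coding genes. Gabpa held the ETS core, which occurs in 14.9% of all windows and 18.7% of protein-coding ones, starting at base -92. That ETS core also lies in 1 of the 2 windows of Atp5j, the gene of a subunit of ATP synthase on the opposite strand. The annotated start of that Atp5j window, at 84834976, is 148 bases from that of Gabpa. The other Atp5j window, with its start at 84835625, held a different ETS core at base 24, not shown. The site shared with Gabpa and its flanks are shown for both genes, each on its own strand, because the same bases lie in a window of each. Capitals mark the motif.
Ppara, chr15:85735735-85735764, plus strand: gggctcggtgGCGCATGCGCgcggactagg
Gabpa, chr16:84835020-84835049, plus strand: gagggtaagtgcTTCCGGgtccctcagcta
Atp5j, chr16:84835020-84835049, minus strand: tagctgagggacCCGGAAgcacttaccctc
These matches describe letters in the reference and do not show binding.

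Depth ranged from 41979163 to 50764023 reads per library, and between 230 and 2447 of these lay on any 1 regulator. Reads on mitochondrial DNA features made up 71.5% to 71.9% in knockout-labelled libraries and 69.4% to 70.0% in controls. Control 490 stood apart from the other controls, at a chi-square of 14.5 for each degree of freedom against control 498 and 15.0 against control 502, where no other pair within a group went above 6.36. Rexo2 itself held 274, 288 and 314 normalised counts in knockout 492, 499 and 501, against 330, 368 and 293 in control 490, 498 and 502. The groups overlapped (log2 fold change -0.17, limma adjusted p = 1.00). Counts are per gene and the sources used here do not name the deleted exons, so Rexo2 does not check the labels. Cardiomyocyte markers summed to between 441741 and 477997 normalised counts in knockout-labelled libraries and between 445865 and 494395 in controls, and 7 of the 8 were abundant enough to test. The exception was Myl7, the atrial myosin light chain, with 3.38 normalised counts in knockout 501 and 0 in the other libraries. Whether atria were part of the samples was not tested.

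The RNAs of the 10 regulators differed little between knockout-labelled and control hearts, and limma called none of them. At an adjusted p under 0.05, limma called 0 of the 10, where it called 0.0219% of the 18250 features tested. edgeR also called 0 of the 10 (0.0274% of all features), with 1 at an unadjusted p under 0.05, again Pprc1. DESeq2 on the recovered reads called 0 of the 10 (0.437% of 7550 features with an adjusted p), with 0 at an unadjusted p under 0.05. The authors' deposited table called 0 of the 10 as well (0.437%). At an unadjusted p under 0.05, limma had 1 regulator, Pprc1, and 3.7% of all features. In 1 regulator, Nrf1, the 3 knockout-labelled values did not overlap the 3 controls, which held for 9.51% of all features in either direction and 4.9% in that direction. The fitted log2 fold changes, knockout over control, had a median of -0.084, beside 0.00056 over all features. They were negative for 7 of the 10, where 49.8% of all features were negative. The regulators below 0 were 9 when libraries were scaled to equal totals and 6 when scaled to equal nuclear totals. Those scalings moved the median of all features by -0.070 and 0.027. The 95% intervals of the fold changes reached no lower than 0.727-fold and no higher than 1.2-fold for any regulator, so larger differences lie outside them. These are levels in heart tissue of mixed cells, in which fewer cells of a type and less RNA per cell cannot be told apart.

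**Figure D1:**
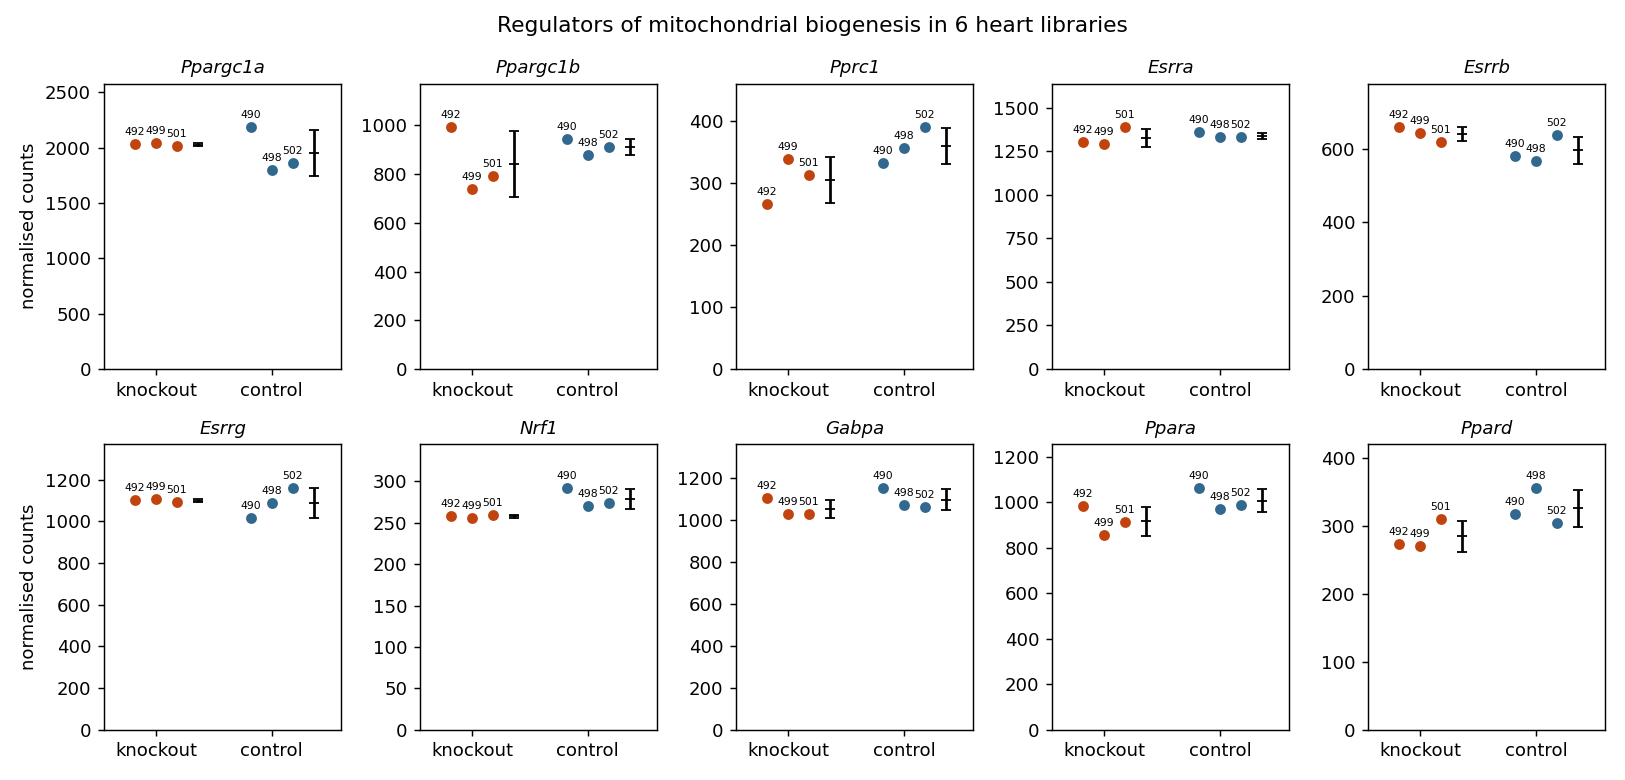
Normalised counts of each regulator (vertical axis from 0) in the 3 knockout-labelled libraries (left, orange) and the 3 control libraries (right, blue), numbered by library, with the mean and SD (n = 3) in black. The groups overlap in every panel other than Nrf1, where knockout-labelled hearts lie between 256 and 259 and controls between 271 and 292.

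Among the coactivators, Ppargc1a, which encodes PGC-1 alpha, the best-known inducer of mitochondrial biogenesis (ENSMUSG00000029167.13, chromosome 5, 51454249 to 52115853), held 2034, 2039 and 2011 normalised counts in knockout 492, 499 and 501. In control 490, 498 and 502 it held 2186, 1798 and 1864. The 3 knockout-labelled values were nearly equal and lay inside the range of the controls, whose highest was control 490. The group means were 2028 ± 14.8 in knockout-labelled and 1950 ± 208 in control hearts (SD, n = 3 each). On the log2 scale the fitted difference was 0.062 (SE 0.067, 95% interval -0.083 to 0.21, limma adjusted p = 1.00). Scaling to equal totals turned its sign, to -0.0078. The value was 0.15 without control 490, 0.0067 without control 498 and 0.033 without control 502.

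Ppargc1b encodes PGC-1 beta, which shares many partners with PGC-1 alpha (ENSMUSG00000033871.14, chromosome 18, 61291445 to 61400756). It held 993, 738 and 791 normalised counts in knockout 492, 499 and 501, and 944, 880 and 913 in control 490, 498 and 502. Knockout 492 was above all 3 controls and the other two knockout-labelled libraries were below all 3, so the spread was wider in the knockout-labelled group, at 16.0% of its mean against 3.49% in controls. The log2 fold change was -0.13 (SE 0.092, 95% interval from -0.33 to 0.069, limma adjusted p = 1.00). It was -0.26 without knockout 492 and -0.041 without knockout 499, with limma adjusted p-values of 0.746 and 1.00, and -0.20 under equal totals. The microRNA gene Mir378a lies inside Ppargc1b, and its own row averaged 11.9 normalised counts over the 6 libraries, though short RNAs are poorly captured by such libraries.

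Pprc1 encodes the PGC-1-related coactivator, known from cultured cells as a serum-responsive partner of NRF1 (ENSMUSG00000055491.13, chromosome 19, 46056526 to 46072909). It had 265, 338 and 312 normalised counts in knockout 492, 499 and 501, and 332, 355 and 390 in control 490, 498 and 502. The groups overlapped only through knockout 499, which lay just above control 490. Means were 305 ± 37.0 in knockout-labelled and 359 ± 28.9 in control hearts (SD, n = 3 each), and Pprc1 had the widest range of the 10, with the highest library at 1.47 times the lowest. Its log2 fold change of -0.24 was the largest of the set in size, with a 95% interval of -0.46 to -0.017 (SE 0.10). Its limma p was 0.0364 before adjustment and 1.00 after it. It was -0.14 without knockout 492, the lowest library, and -0.31 under equal totals. The limma p of Pprc1 under equal totals was 0.0113 before adjustment and 0.556 after it. Within libraries, the log2 ratio of Pprc1 to Ppargc1a was -2.94, -2.59 and -2.69 in knockout 492, 499 and 501, and -2.72, -2.34 and -2.26 in control 490, 498 and 502, with overlap. These ratios are of counts not set per length, so they serve only to compare libraries.

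The 3 estrogen-related receptors are orphan nuclear receptors that PGC-1 proteins activate without a known natural ligand. Esrra, which encodes ERR alpha (ENSMUSG00000024955.13, chromosome 19, 6910977 to 6922048), was the steadiest of the 10 across libraries, with the highest at 1.07 times the lowest. It held 1301, 1294 and 1389 normalised counts in knockout 492, 499 and 501, and 1360, 1330 and 1331 in control 490, 498 and 502. The 3 controls lay within the knockout-labelled range. The log2 fold change was -0.014 (SE 0.055, 95% interval from -0.13 to 0.10, limma adjusted p = 1.00), and it was -0.084 under equal totals. Its sign turned under equal nuclear totals, to 0.013, and was also positive at 0.00040 without knockout 492 and 0.0041 without knockout 499, and it was -0.047 without knockout 501. The annotated gene overlaps Trmt112, which averaged 128 normalised counts, by 52 bases.

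Esrrb, best known for its part in embryonic stem cells, encodes ERR beta (ENSMUSG00000021255.17, chromosome 12, 86361117 to 86521628). It was clearly detected in these hearts, with 660, 645 and 620 normalised counts in knockout 492, 499 and 501. Controls 490, 498 and 502 held 583, 569 and 638. The knockout-labelled libraries lay above 2 of the 3 controls, and control 502 lay among them. The log2 fold change was 0.11 (SE 0.071, 95% interval from -0.045 to 0.26, limma adjusted p = 1.00), and it was 0.037 under equal totals.

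Esrrg encodes ERR gamma, which drives the switch of the newborn heart toward oxidative metabolism in mice (ENSMUSG00000026610.13, chromosome 1, 187608510 to 188214885). It held 1103, 1106 and 1092 normalised counts in knockout 492, 499 and 501, and 1015, 1090 and 1161 in control 490, 498 and 502. As with Ppargc1a, the knockout-labelled values lay close together and inside the controls' range, here with control 490 the lowest. The log2 fold change was 0.017 (SE 0.062, 95% interval from -0.12 to 0.15, limma adjusted p = 1.00), and it was -0.053 under equal totals and -0.032 without control 490.

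NRF1 and GABP bind promoters of many nuclear genes for respiratory chain subunits. Nrf1, nuclear respiratory factor 1 (ENSMUSG00000058440.14, chromosome 6, 30047985 to 30153458), had 259, 256 and 259 normalised counts in knockout 492, 499 and 501, against 292, 271 and 274 in control 490, 498 and 502. All 3 knockout-labelled libraries were below all 3 controls, and the means were 258 ± 2.03 in knockout-labelled and 279 ± 11.6 in control hearts (SD, n = 3 each). The fitted difference was -0.11 on the log2 scale (SE 0.087, 95% interval -0.30 to 0.075, limma adjusted p = 1.00). It ranged from -0.13 to -0.078 when 1 library was left out and was -0.18 under equal totals. Reads on Nrf1 were few, with 230 to 327 per library.

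Gabpa encodes the DNA-binding subunit of GABP, an ETS factor also called NRF2 (ENSMUSG00000008976.16, chromosome 16, 84834891 to 84863783). It held 1101, 1026 and 1028 normalised counts in knockout 492, 499 and 501, and 1152, 1072 and 1060 in control 490, 498 and 502, with overlap. The log2 fold change was -0.057 (SE 0.061, 95% interval from -0.19 to 0.074, limma adjusted p = 1.00). It was -0.13 under equal totals and -0.030 under equal nuclear totals, -0.091 without knockout 492 and -0.020 without control 490. Atp5j, across the ETS core printed above, held 1246, 1156 and 1188 normalised counts in knockout 492, 499 and 501 and 1222, 1250 and 1191 in control 490, 498 and 502. Its log2 fold change was -0.029 (limma adjusted p = 1.00), so neither gene of the pair was called. The annotated genes overlap by 967 bases, and the sources used here do not say if counting used strand, so their reads may not be fully separated.

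The PPARs are nuclear receptors for fatty acids that pair with RXR and drive fatty acid oxidation in the heart. Ppara (ENSMUSG00000022383.13, chromosome 15, 85734910 to 85806851) held 983, 855 and 916 normalised counts in knockout 492, 499 and 501, and 1064, 971 and 990 in control 490, 498 and 502. The groups overlapped only in that knockout 492 lay above control 498. Means were 918 ± 64.2 in knockout-labelled and 1008 ± 49.2 in control hearts (SD, n = 3 each). The log2 difference was -0.14 (SE 0.068, 95% interval -0.28 to 0.0099, limma adjusted p = 1.00). It was -0.21 under equal totals, a scaling that moved the median of all features by -0.070. The limma p of Ppara was then 0.00888 before adjustment and 0.546 after it. Without knockout 499 the log2 difference was -0.086. Ppard, which encodes PPAR delta (ENSMUSG00000002250.16, chromosome 17, 28232754 to 28301469), had 273, 270 and 310 normalised counts in knockout 492, 499 and 501, and 316, 355 and 304 in control 490, 498 and 502. Knockout 501 lay above control 502, and the other knockout-labelled libraries were below all controls. Its log2 fold change was -0.19 (SE 0.095, 95% interval from -0.40 to 0.011, limma adjusted p = 1.00). It was -0.13 without control 498, -0.26 without knockout 501 and -0.26 under equal totals. The limma p of Ppard under equal totals was 0.0145 before adjustment and 0.556 after it. The log2 ratio of Ppara to Ppard counts averaged 1.69 ± 0.15 in knockout-labelled and 1.63 ± 0.16 in control hearts (SD, n = 3 each), closer than the spread within either group.

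**Figure D2:**
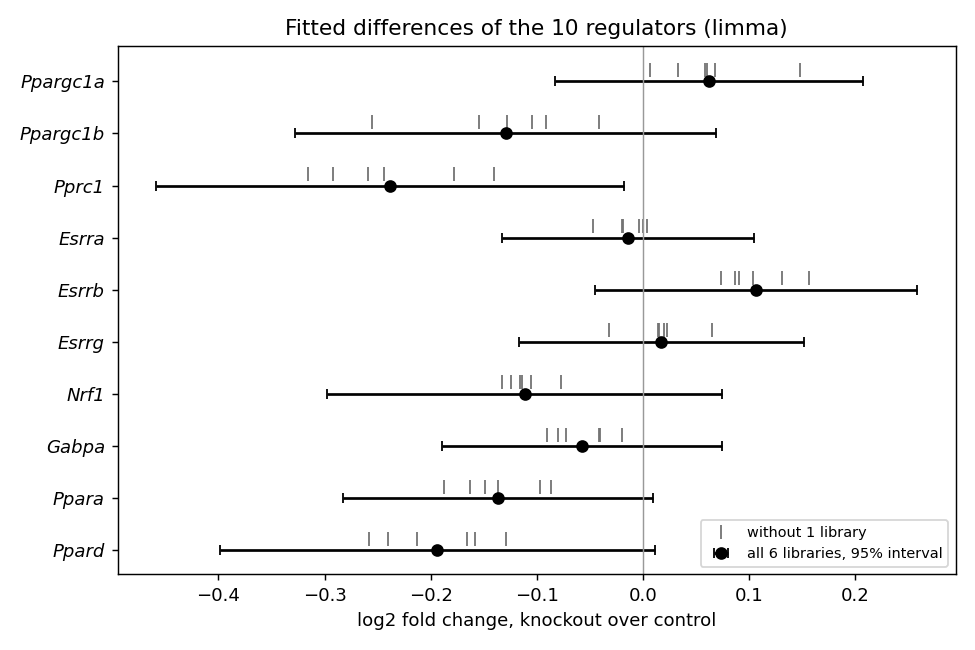
Fitted log2 fold change (knockout over control, horizontal axis) of each regulator with its 95% interval from limma (black), and the values when 1 library is left out (grey ticks). The intervals of 9 of the 10 regulators include 0, and that of Pprc1 ends at -0.017.

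In the authors' deposited table the 10 log2 fold changes ran from -0.23 for Pprc1 to 0.11 for Esrrb, with an adjusted p of 1.00 for each. Between libraries, control 490 was the highest for Ppargc1a, Nrf1, Gabpa and Ppara and the lowest for Esrrg. Knockout 499 was the lowest for 6 of the 10, among them Ppara and Ppard, and knockout 492 was the highest for Ppargc1b and Esrrb and the lowest for Pprc1. Without control 490 the log2 fold changes were -0.10 for Ppargc1b, -0.29 for Pprc1, -0.0036 for Esrra and 0.091 for Esrrb. Those of Nrf1, Ppara and Ppard were then -0.078, -0.097 and -0.21, and limma again called 0 of the 10. Counts are not set per length and exon lengths were not used here, so the levels of different regulators are not ranked against each other.

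The genes around these regulators were read in 7 lists with 110 distinct tested genes, of which limma and edgeR each called 0. DESeq2 gave an adjusted p to 98 of them and called 0 of those. At an unadjusted p under 0.05 limma had 3 of the 110, edgeR 4 of the 110 and DESeq2 4 of its 98, and the groups did not overlap in 6, or 5.45%, where 9.51% of all features did not. Cofactors and enzymes that bind, modify or oppose PGC-1 proteins had 0 called of 18 tested and a median log2 fold change of 0.022. In this list 12 were fitted above 0 and 6 below, where 49.8% of all features were below 0. The members of smallest p were Prkaa1, a catalytic subunit of the energy sensor AMPK, at 449 ± 33.2 in knockout-labelled and 412 ± 19.0 normalised counts in control hearts, and Ncoa2, a nuclear receptor coactivator, with log2 fold changes of 0.12 and 0.074. Perm1, a muscle regulator induced by PGC-1 and ERR, held 7440 ± 170 and 7499 ± 159 normalised counts in knockout-labelled and control hearts (SD, n = 3 each), and was named after its values were seen.

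Partner receptors and subunits, among them the RXRs, Pparg and the GABP beta subunits, had 0 called of 12 tested, with a median log2 fold change of -0.012. Nr4a1, an immediate early nuclear receptor, had 117, 189 and 264 normalised counts in knockout 492, 499 and 501, and 218, 223 and 224 in control 490, 498 and 502, with the knockout-labelled values on both sides of the controls. Gabpb1, which encodes a GABP beta subunit, was at -0.081 on the log2 scale. Factors and signals upstream of Ppargc1a, such as CREB, MEF2 and p38, had 0 called of 16 tested, with a median of -0.022 and Nos3 and Mapk14 at -0.12 and -0.11.

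Textbook targets of NRF1 and GABP had 0 called of 20 tested and a median log2 fold change of 0.011. In this list 13 were fitted above 0 and 7 below, where 49.8% of all features were below 0. Nrf1 itself was fitted below 0. Tomm20, a receptor of the outer membrane import pore, had 703 ± 18.8 normalised counts in knockout-labelled and 646 ± 27.1 in control hearts (SD, n = 3 each) without overlap (log2 fold change 0.12, limma adjusted p = 1.00). Tfb1m, a methyltransferase of the mitochondrial small-subunit rRNA, was at 0.27 with overlap. Tfam, the packaging factor of mitochondrial DNA and a target of both factors, held 485, 508 and 521 normalised counts in knockout 492, 499 and 501 and 524, 542 and 510 in control 490, 498 and 502, a log2 fold change of -0.058. It was named after its values were seen.

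ERR targets had 0 called of 16 tested, with a median of -0.011. The groups did not overlap in 3 of the 16, Sod2, Ckmt2 and Mb, beside 9.51% of all features. Mb, the oxygen store myoglobin, was at -0.096 on the log2 scale (limma adjusted p = 1.00) and was named after its values were seen. Sod2, the mitochondrial superoxide dismutase, had the smallest p of the list, with 8263, 7502 and 7737 normalised counts in knockout 492, 499 and 501 and 9282, 8587 and 8773 in control 490, 498 and 502. The lowest control was above the highest knockout-labelled library, yet the log2 fold change of -0.18 (SE 0.050) had a limma adjusted p of 0.796. Ckmt2, the mitochondrial creatine kinase of muscle, lay on the other side, with 10039 ± 264 in knockout-labelled and 9281 ± 214 in control hearts (SD, n = 3 each) , 0.11 on the log2 scale (limma adjusted p = 1.00). PPAR targets had 0 called of 24 tested, with a median of 0.028. Of these, 18 were fitted above 0 and 6 below, where 49.8% of all features were below 0. Ppara and Ppard themselves were fitted below 0. Acadl and Plin2, a fatty acid dehydrogenase and a lipid droplet protein, did not overlap between the groups, at 0.13 and 0.14 on the log2 scale, each with a limma adjusted p of 1.00.

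**Figure D3:**
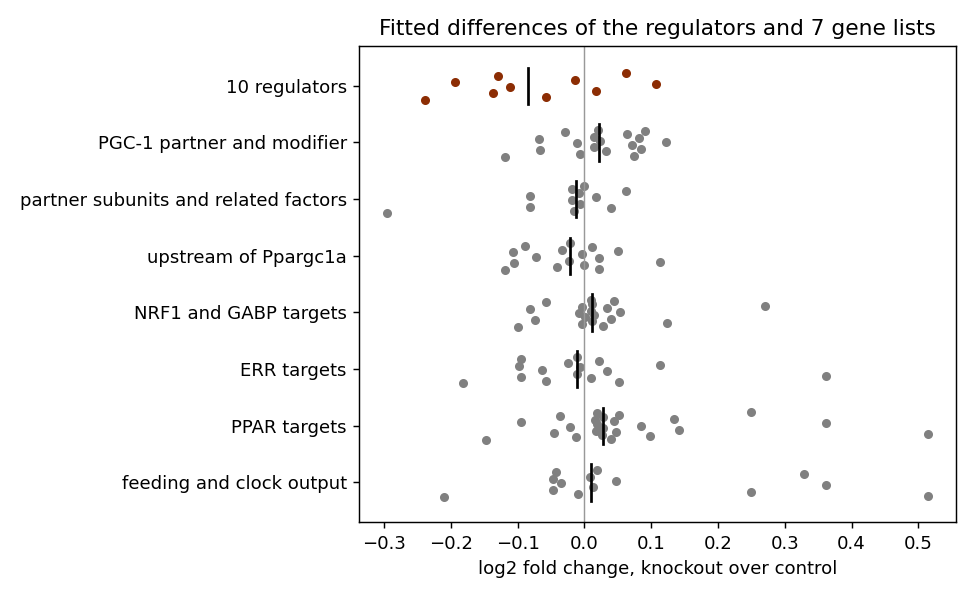
Fitted log2 fold changes (knockout over control, horizontal axis) of the 10 regulators (brown) and of the tested genes of each list (grey, a point per gene), with the median of each row as a black line. The medians run from -0.084 for the regulators to 0.028 for the PPAR targets, and some genes stand in more than 1 list.

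Libraries of the same group differed far more in some PPAR targets than in the PPARs. Pdk4, the kinase that switches off pyruvate dehydrogenase, held 3364, 2038 and 4623 normalised counts in knockout 492, 499 and 501, and 5611, 1989 and 1338 in control 490, 498 and 502. Angptl4, a lipase inhibitor induced by fasting, held 114, 51.1 and 112 in knockout 492, 499 and 501, and 133, 66.7 and 24.4 in control 490, 498 and 502. Ucp3, a mitochondrial carrier of muscle, held 667, 271 and 869 in knockout 492, 499 and 501 and 789, 427 and 277 in control 490, 498 and 502. In each of these 3 genes, chosen after their values were seen, knockout 492, knockout 501 and control 490 were above the other libraries. The highest library was 4.19 times the lowest for Pdk4, 5.45 times for Angptl4 and 3.21 times for Ucp3, against 1.24 times for Ppara and 1.32 times for Ppard. Ppara was highest in control 490 and lowest in knockout 499. Within the knockout-labelled group it held 983 and 916 in knockout 492 and 501, above 855 in knockout 499. Within the controls it held 1064 in control 490, above 971 in control 498 and 990 in control 502. Between the groups, knockout 501 lay below control 498 and control 502. Ppargc1a was highest in control 490 as well, but knockout 501 held no more Ppargc1a than knockout 499. The median of that ratio was 1.19 over the 10 regulators, 1.30 over the PPAR targets, 1.67 over 14 genes of feeding and clock output and 1.17 over the 7499 features averaging at least 250 normalised counts. The feeding and clock list had 0 called of 14 tested, at a median of 0.010 on the log2 scale, and Arntl, a core clock activator, and Ciart, a clock repressor, at 0.33 and -0.21. The part of feeding state or time of day in these values was not tested.

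**Figure D4:**
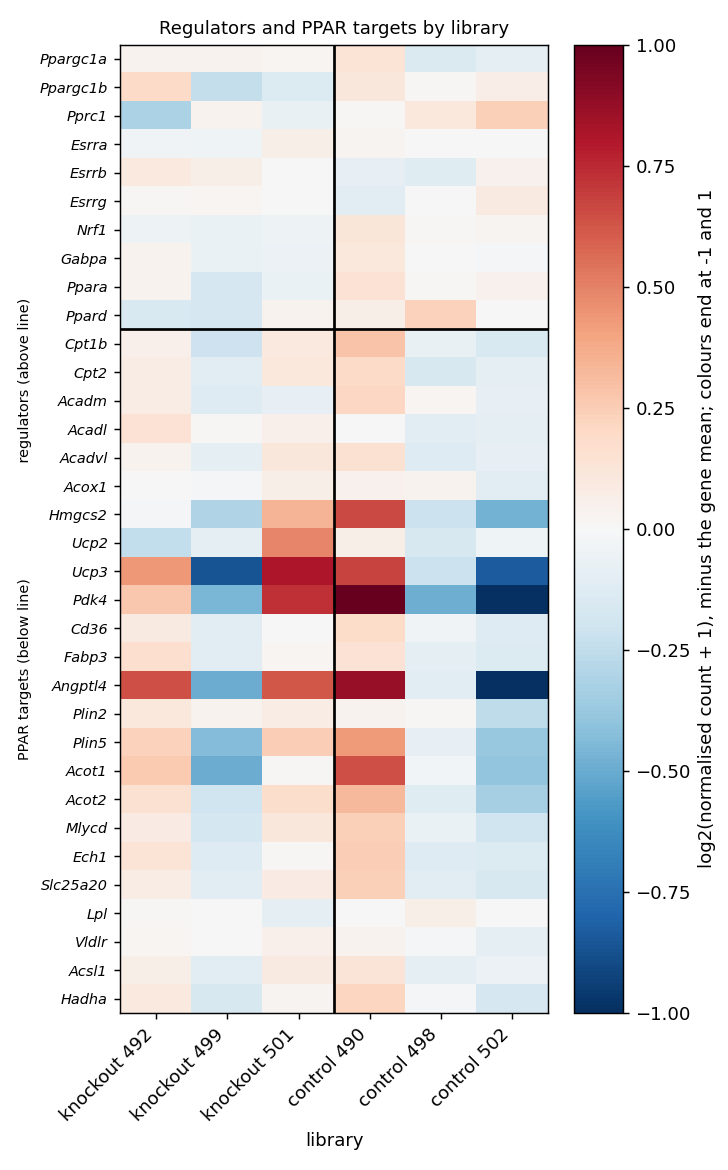
Values of the 10 regulators (above the line) and the 24 PPAR targets (below it) in the 3 knockout-labelled (left) and 3 control libraries (right), as log2(normalised count + 1) minus the gene's own mean, with colours ending at -1 and 1. Pdk4, Angptl4 and Ucp3 are high in knockout 492, knockout 501 and control 490, while the regulators stay pale throughout.

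**Figure D5:**
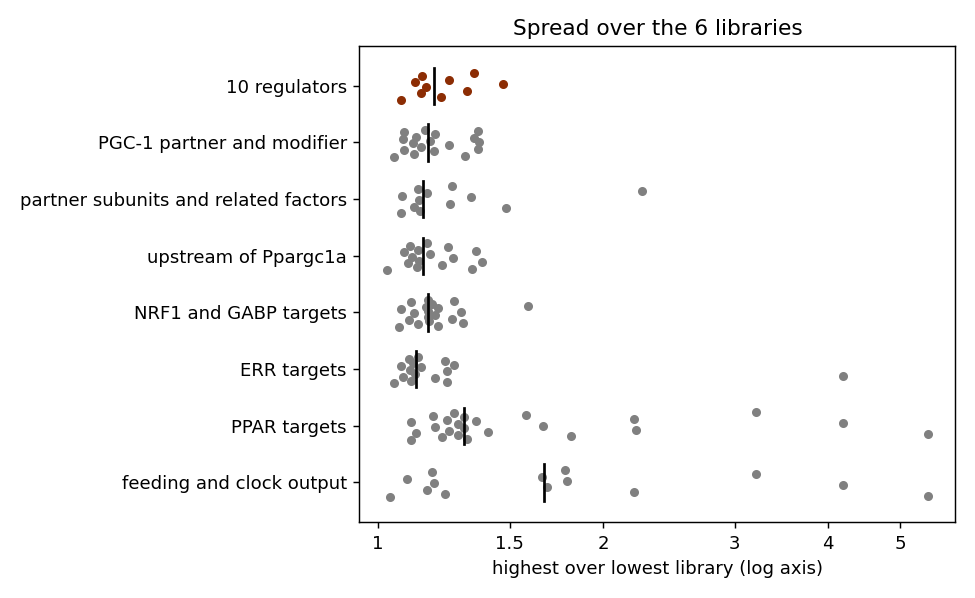
Highest over lowest of the 6 libraries (horizontal log axis) for each regulator (brown) and each tested gene of the 7 lists (grey), with the median of each row as a black line. The regulators end at 1.47 for Pprc1, and PPAR targets reach 5.45 for Angptl4.

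The genes most like a regulator across the 6 libraries were found by the root mean square difference of log2 values after each gene was centred on its own mean, among 10780 named genes with a mean of at least 50. For Ppargc1a, whose own spread was 0.092, these were Kat7, a histone acetyltransferase, at 0.013, Adam15 at 0.020 and Gpat4 at 0.022. Kat7 held 546, 554 and 553 normalised counts in knockout 492, 499 and 501 and 595, 487 and 499 in control 490, 498 and 502, with the same high value in control 490. Rxrb, which encodes an RXR, was the closest to Esrra at 0.0094, followed by Ufd1 at 0.012 and Phldb1 at 0.013, although Esrra had a spread of 0.035 and 754 genes lay within 0.05 of it. Dhx8 and Pabpn1, both at 0.019, and Apobec2 at 0.020 were closest to Ppara, whose spread was 0.098. These distances describe the 6 libraries and say nothing of shared control.

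Of the other cell types looked for, adipocyte markers summed to at most 6.77 normalised counts and lymphocyte markers to at most 36.5 in any knockout-labelled library, and to at most 3.05 and 42.7 in any control. The summed counts of fibroblast, endothelial, macrophage, smooth muscle and red cell markers overlapped between the groups, and limma called 0 of their members. Single markers of these types without overlap were Pdgfra and Adgre1, where 9.51% of all features did not overlap. Pdgfra, a growth factor receptor of fibroblasts, was at -0.082 on the log2 scale (limma adjusted p = 1.00). Adgre1, the macrophage surface protein F4/80, was at 0.35 (limma adjusted p = 1.00). The fibroblast list had 3 markers fitted above 0 and 3 below, and the macrophage list 4 above and 2 below. The skeletal muscle list summed to between 18209 and 19476 normalised counts in knockout-labelled libraries and between 15698 and 17051 in controls, without overlap. That sum came from Ckm and from Acta1, both of which heart muscle also expresses, while Myh4 was at 0 in every library. Acta1, skeletal alpha-actin, had 5060 ± 663 normalised counts in knockout-labelled and 3361 ± 1045 in control hearts (SD, n = 3 each), 0.64 on the log2 scale (limma adjusted p = 0.744). Ckm was at 0.042. The part of these genes in the values of the regulators was not tested.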

How the data were processed

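The deposited expression signal is a table of normalised counts per gene, made by the authors. The submitters' processing notes name DESeq2 1.22.2, featureCounts, Bowtie2 2.3.4.1, R 3.5.2 and bedtools as tools, and mm10 and GRCm38 as builds, without roles. The authors also deposited a DESeq2 table, and its p-values, log2 fold changes and test score are quoted only as theirs. Libraries of RNA ends from heart mitochondria were not analysed here. Reads were recovered by taking the smallest nonzero value of each library as 1 read, and 100% of 156689 nonzero values came out whole within 0.01. Symbols were joined to 54686 of 54715 Ensembl identifiers, without versions. Gene positions are from RefSeq GRCm38.p6.

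Features with a mean under 10 were left out, and the other 18250 were tested on the log2(value + 1) scale, where changes of low genes are understated, with limma 3.58.1 in R 4.3.3 (trended prior, 2-sided, genotype as the only term, Benjamini-Hochberg over all features, threshold 0.05). The fit was tested on simulated data. The pass mark was for fold changes far larger than those of the regulators, so passing it says nothing on small differences. edgeR 4.0.16 and DESeq2 1.42.0 on the recovered reads, other scalings, filters, pseudocounts and leaving out each library were alternatives. The members and lists were chosen with earlier results of these data known. Named genes are the members, Rexo2, the 2 members of smallest p in each list without a call, and the 3 genes most like Ppargc1a, Esrra and Ppara. Any other is said to be chosen after its values were seen, or stands in the account of neighbours and cell type markers.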

Additional observations from a re-analysis of the deposited data

How the results depend on the processing

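No regulator was called in any of 18 alternatives, and 174 of the 180 values kept their sign, while 6 changed it. Under equal totals, which moved the median of all features by -0.070, Ppargc1a was at -0.0078 and Esrrg at -0.053. Under equal nuclear totals Esrra was at 0.013. Leaving out 1 library gave values from -0.047 to 0.0041 for Esrra and from -0.032 to 0.065 for Esrrg, and at 0.00040 for Esrra without knockout 492. The cause of these turns was not tested. The lowest adjusted p of any regulator was 0.546, for Ppara under equal totals. The 4 features that limma called among all genes became 12 without a filter, 37 under equal totals, 0 without a trend, 12 with robust moderation and 33 both with DESeq2 on the recovered reads and in the authors' deposited table, and ran from 1 to 8 when 1 library was left out. It was 1 without knockout 499, control 498 or control 502, and 8 without control 490. Calls in the 7 lists stayed at 0 under both scalings and without any 1 library. No paired analysis was possible because the table's columns carry library numbers and not the replicate numbers of the labels, and nothing in the labels ties those numbers to a shared litter, batch or day. Levels per length were not run because exon lengths were not used here.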
